A study of Mus musculus with 6 samples.

Results

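Galectins are small lectins that bind beta-galactoside sugars on glycoproteins and glycolipids. They are made in the cytosol, leave the cell without a signal peptide, and crosslink surface receptors and matrix proteins outside it. Inside the cell, several of them gather on the exposed glycans of damaged endosomes and lysosomes. In adipose tissue galectin-3 is best known as a product of macrophages, and stromal cells also make galectins. The 6 genes described here are Lgals1, Lgals3, Lgals4, Lgals8 and Lgals9, which encode galectins, and Lgals3bp, which encodes a secreted, heavily glycosylated protein that binds galectin-3. They were chosen by gene symbol, as 6 of the 31053 genes counted, with earlier results of these data known.

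The data were single-cell RNA-seq counts of unique molecular identifiers (UMIs, 1 per captured RNA molecule) from stromal vascular cells of the inguinal white adipose tissue (iWAT) of C57BL/6 mice. Cells that carried CD45, the surface protein of immune cells, had been sorted out. Young mice were 9 weeks and aged mice 57 weeks old, and all were held at 30 °C for 3 weeks before the experiment. They then stayed at 30 °C (thermoneutral, TN) or spent the last 3 days (3D) or 14 days (14D) at 6 °C, with 1 library for each age and temperature: young TN, young 3D, young 14D, aged TN, aged 3D and aged 14D. All groups share the C57BL/6 background with no genetic change stated, and the number of mice behind a library is not given in the sources used here. The paper names Jackson Laboratories (C57BL/6J) and the National Institute of Aging (C57BL/6JN) as suppliers. Which of them supplied a library is not stated, so whether the supplier differed between the ages is not known. With 6 libraries, age was compared over 3 young and 3 aged libraries, and the p-values measure only the spread between these libraries.

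Of 68103 barcodes, 57326 were kept as cells, and 30 to 44 barcode sequences were shared by any pair of libraries. Total UMIs per library lay between 52068837 in aged 14D and 88508349 in young TN. The aged 14D library was the shallowest. It had a median of 2741.5 UMIs per kept cell against 6726 to 9904 in the others, and 36.5% of its kept cells held under 2000 UMIs, so results are also given without it where it mattered. Aged TN and aged 3D, at 6726 and 6912, also lay below young TN, 3D and 14D, at 9904, 8312 and 7652. Depth therefore went with age also without aged 14D. Its part in the age differences was not tested beyond fits on cells thinned to 2000 UMIs. Cells were assigned to classes by counting detected marker genes, none of which is a galectin gene. The classes followed the names used for adipose stem and progenitor cells (ASPCs): 18919 Dpp4+ fibroblasts, 21228 Icam1+ preadipocytes and 2843 Cd142+ fibroblasts, besides 3830 endothelial cells and 697 smooth muscle cells and pericytes (SMC/pericyte). The boundary between ASPC classes is a count of markers, and 1894 Dpp4+, 976 Icam1+ and 1396 Cd142+ cells lay at it. Of these Icam1+ cells, 399 were in aged 14D, against 74 to 153 in each other library. A further 6186 ASPCs had no subclass and 1725 cells no class, and neither group was tested. They made up 21.8% and 11.4% of kept cells in aged 14D, against 5.94% to 9.34% and 0.438% to 1.94% in the other libraries. Because the tissue was sorted against CD45, 6 to 24 cells per library were myeloid, 2 to 21 were lymphoid, 14 to 35 were Schwann cells and 4 to 15 were lymphatic endothelial cells. UMIs were summed per library and class, and levels are CPM, that is, UMIs of a gene scaled to a fixed total of UMIs in the class (with TMM scaling between libraries, or as raw CPM without it), which compare a gene between libraries or classes. A 3' tag counts molecules and not bases, so no level here was divided by gene length and levels of different genes are not ranked against each other.

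The members lie on 5 chromosomes of GRCm38, here by GENCODE annotation. Lgals1 spans chr15:78926725-78930465 on the plus strand, Lgals3 chr14:47367751-47386160 on the plus strand, Lgals3bp chr11:118392751-118402092 on the minus strand, Lgals4 chr7:28833854-28841708 on the plus strand, Lgals8 chr13:12439415-12464944 on the minus strand and Lgals9 chr11:78962974-78984946 on the minus strand. Only Lgals8 overlaps another counted gene, Heatr1, which is read from the opposite strand.

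Lgals9 and Lgals3bp are known to respond to interferon, so the RefSeq promoter windows (250 bases before to 50 after each gene's start, GRCm38.p6) were searched on both strands for the core of the interferon-stimulated response element (GAAA, any 2 bases, GAAA). The motif was in 1131 of 32851 windows (3.44%) and in 8 of the 16 interferon-stimulated genes of a fixed list that have a window (50%). Of the 5 members with a window (Lgals1 was not matched), Lgals9 held it at a pair of positions, and Lgals3, Lgals3bp, Lgals4 and Lgals8 did not. The windows of Lgals3 and Lgals8 lie inside the GENCODE spans given above and do not cover the GENCODE starts. The Lgals4 window ends at 28833843, before its GENCODE start. Positions from the start of Lgals9 below count from the RefSeq start of its window, which is not the GENCODE start. The sequences below show both Lgals9 matches, read 5′ to 3′ along the gene's strand, with the motif in capitals. Both are on the opposite strand, so the motif reads here as its reverse complement.
Lgals9 first match, chr11:78984960-78984989, bases -55 to -46 from the gene's start: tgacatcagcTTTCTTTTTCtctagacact
Lgals9 second match, chr11:78984890-78984919, 15 to 24 bases after the start: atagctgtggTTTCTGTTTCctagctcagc
A match describes the letters of the window, and no binding was measured.

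Every member was detected in all 5 large classes of all 6 libraries, and all 6 passed the filter on low counts in each of these classes, so that 30 age effects were tested. The first question was where each gene is expressed. Levels were compared between neighbouring classes over all 6 libraries in an edgeR quasi-likelihood fit with library as a block, and the means in the next paragraphs come from that joint fit.

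Lgals1 was highest in SMC/pericyte (1759 ± 82.0 CPM, SD, n = 6 libraries), followed by Icam1+ preadipocytes (1310 ± 124), Cd142+ fibroblasts (1041 ± 108) and Dpp4+ fibroblasts (901 ± 113), with endothelial cells far below (226 ± 46.3). SMC/pericyte exceeded Icam1+ preadipocytes by 0.43 on the log2 scale (edgeR adjusted p = 0.000979), Icam1+ exceeded Cd142+ by 0.33 (edgeR adjusted p = 0.0221), and Dpp4+ exceeded endothelial by 2.00 (edgeR adjusted p = 6.34e-16). The Cd142+ and Dpp4+ neighbours, 0.21 apart, did not differ beyond their spread (edgeR adjusted p = 0.0966).

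Among the 5 large classes, Lgals3 was highest in the 3 ASPC classes. It stood at 163 ± 47.1 CPM in Cd142+ fibroblasts, 137 ± 23.4 in Icam1+ preadipocytes and 124 ± 32.4 in Dpp4+ fibroblasts, and these neighbours did not differ beyond their spread (edgeR adjusted p = 0.189 and 0.214). The ends of this ASPC order did differ, with Dpp4+ against Cd142+ fibroblasts at -0.39 on the log2 scale (edgeR adjusted p = 0.00711). SMC/pericyte was next at 28.8 ± 15.1 CPM, lower than Dpp4+ fibroblasts by 2.01 on the log2 scale (edgeR adjusted p = 4.50e-10), and endothelial cells held 22.5 ± 7.62. Its binding partner Lgals3bp was also highest in ASPCs, with Icam1+ preadipocytes (224 ± 43.2 CPM) above Dpp4+ fibroblasts (167 ± 31.1) by 0.41 on the log2 scale (edgeR adjusted p = 0.000122). Dpp4+ and Cd142+ fibroblasts (160 ± 29.2) did not differ beyond their spread for Lgals3bp (edgeR adjusted p = 0.586), and neither did endothelial cells (70.8 ± 13.8) and SMC/pericyte (68.4 ± 23.1, edgeR adjusted p = 0.621).

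Lgals9, a galectin with a pair of sugar-binding domains that acts on T cells, had another order. Dpp4+ fibroblasts were highest (142.2 ± 13.7 CPM), 0.54 on the log2 scale above endothelial cells (97.5 ± 11.9, edgeR adjusted p = 7.06e-08). Endothelial cells, Icam1+ preadipocytes (89.6 ± 11.0) and Cd142+ fibroblasts (87.3 ± 8.38) did not differ beyond their spread from their neighbours (edgeR adjusted p = 0.124 and 0.737), and SMC/pericyte was lowest (43.5 ± 11.98). Lgals8, a galectin that detects ruptured vesicles, ranged from 42.5 ± 2.33 CPM in Cd142+ fibroblasts to 33.8 ± 10.7 in SMC/pericyte, and no neighbouring pair of classes passed the test (lowest edgeR adjusted p = 0.0517). Pairs further apart in this order did pass. Lgals8 was -0.28 in Dpp4+ against Cd142+ cells (edgeR adjusted p = 0.00126). In Cd142+ cells it was 0.21 against endothelial cells and 0.37 against SMC/pericyte (edgeR adjusted p = 0.0247 and 0.0121). With size factors of the kind DESeq2 uses, 3 further differences between neighbouring classes passed in edgeR: Lgals8 was -0.17 in Dpp4+ against endothelial cells (adjusted p = 0.0450) and -0.21 in Icam1+ against Cd142+ cells (adjusted p = 0.0317), and Lgals9 was -0.21 in Icam1+ against endothelial cells (adjusted p = 0.00768). Lgals4, known as a galectin of the gut epithelium, was the least counted member, with 20.7 ± 5.85 CPM in SMC/pericyte, 11.99 ± 3.29 in endothelial cells and 2.22 ± 0.360 in Dpp4+ fibroblasts.

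These class differences stand on a high background. Among all genes tested, the share called was 63.3% between Dpp4+ and Icam1+, 50.2% between Dpp4+ and Cd142+, 77.3% between Dpp4+ and endothelial, 60.3% between Dpp4+ and SMC/pericyte, and 20.6% between Icam1+ and Cd142+ cells. It was 76.3% between Icam1+ and endothelial, 56.1% between Icam1+ and SMC/pericyte, 72.5% between Cd142+ and endothelial, 53.9% between Cd142+ and SMC/pericyte and 49.3% between endothelial and SMC/pericyte cells. Most genes therefore differed between most classes, and a called difference is no special property of a galectin gene.

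**Figure D1:**
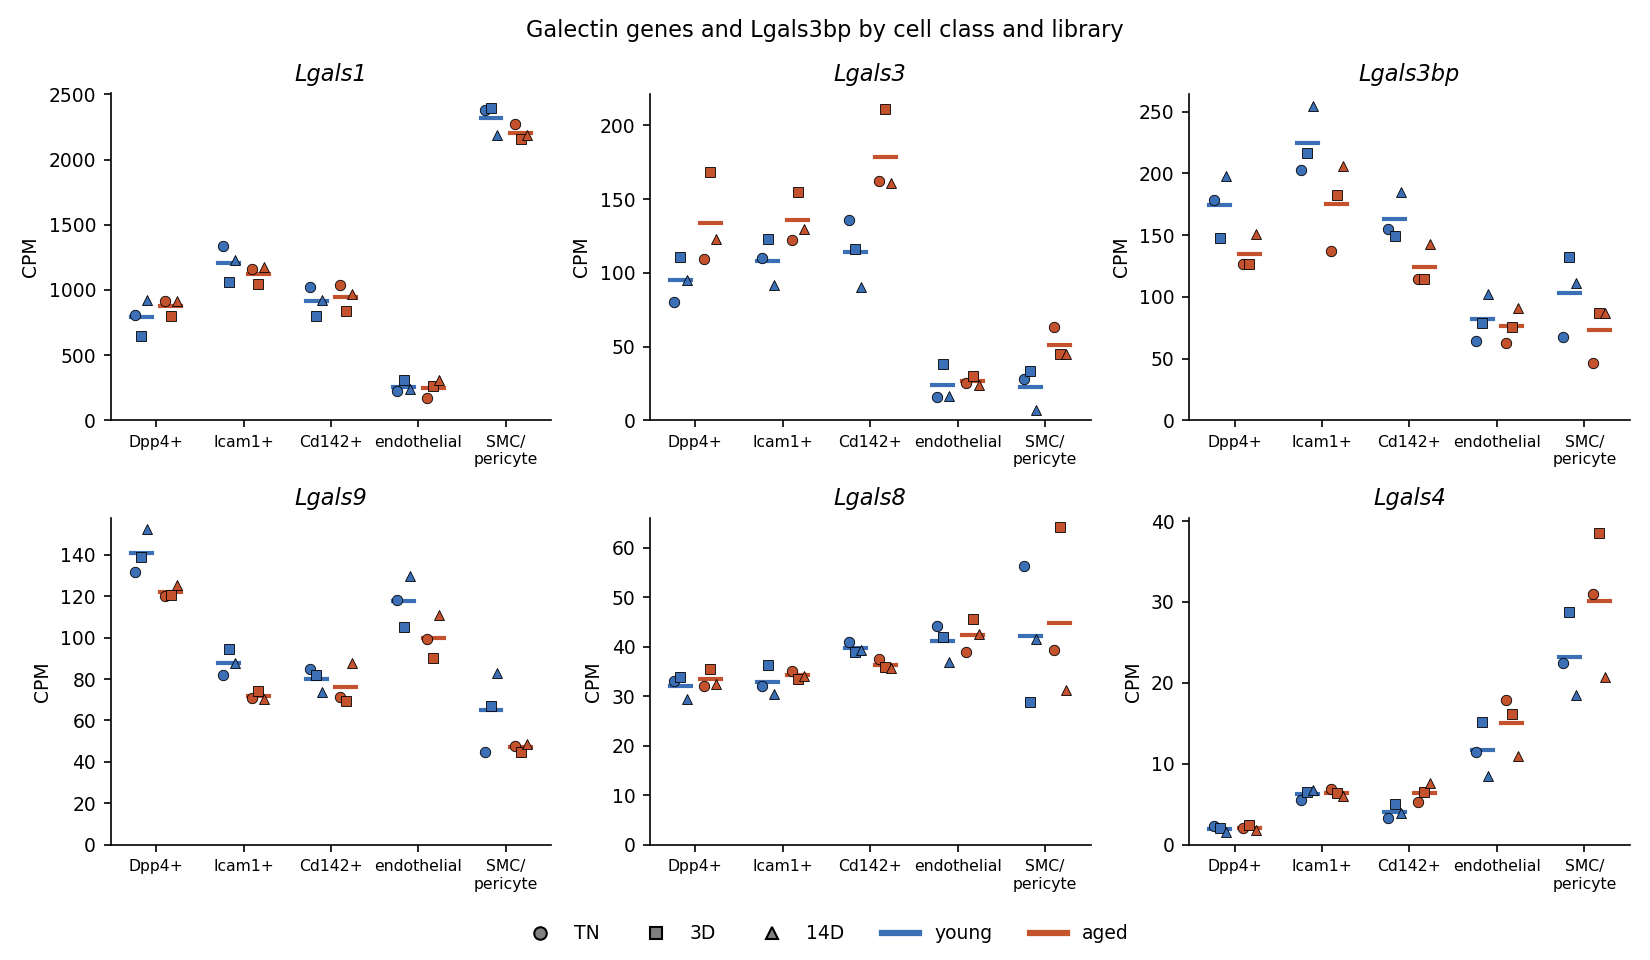
Each panel gives 1 gene as CPM (vertical axis, linear from 0, fitted within each class) in 5 cell classes, with a marker per library (circle TN, square 3D, triangle 14D), young in blue and aged in orange, and a bar at the mean of 3 libraries. Lgals1 is highest in SMC/pericyte, Lgals3 and Lgals3bp in the ASPC classes and Lgals9 in Dpp4+ fibroblasts, and in Cd142+ fibroblasts the aged Lgals3 markers (161 to 211 CPM) lie above all young ones (90.7 to 136 CPM).

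The second question was how expression differed with age. Age was tested within each class over the 6 libraries with temperature as a term. In Dpp4+ fibroblasts 3 of 6 members passed (background 17.3% of genes), in Icam1+ preadipocytes 3 of 6 (background 11.5%) and in Cd142+ fibroblasts 2 of 6 (background 8.76%). No member passed in endothelial cells (background 0.621%) or SMC/pericyte (background 0.295%). There edgeR gave 1 and 2 members at an unadjusted p under 0.05, and DESeq2 called 0 in each, having given no adjusted p for 3 of 6 members in endothelial cells and 5 of 6 in SMC/pericyte. Lgals3 was higher and Lgals3bp lower in aged ASPCs of all 3 classes, and Lgals9 was lower in aged Dpp4+ and Icam1+ cells. In DESeq2, 2, 3 and 1 members passed in Dpp4+, Icam1+ and Cd142+ cells. Where age groups are said here not to overlap, this only describes 3 against 3 libraries. The share of all genes without overlap is not given, so a lack of overlap is no support for a member.

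Lgals3 in Dpp4+ fibroblasts measured 79.9, 111 and 95.3 CPM in young TN, 3D and 14D and 109, 168 and 123 CPM in aged TN, 3D and 14D. The aged library was higher at every temperature, although aged TN lay just under young 3D. The mean rose from 95.4 ± 15.5 to 133 ± 30.8 CPM (SD, n = 3 libraries per age), a log2 fold change of 0.47 (SE 0.064, edgeR adjusted p = 0.000366). In Cd142+ fibroblasts Lgals3 measured 136, 116 and 90.7 CPM in young and 162, 211 and 161 CPM in aged TN, 3D and 14D. The age groups did not overlap there, and the mean rose from 114 ± 22.6 to 178 ± 28.7 CPM, by 0.64 on the log2 scale (SE 0.108, edgeR adjusted p = 0.000325). With cells thinned to 2000 UMIs and equal cell numbers it was 0.36 and did not pass (edgeR adjusted p = 0.200). In Icam1+ preadipocytes it measured 110, 123 and 92.0 CPM in young and 123, 155 and 130 CPM in aged libraries. Young 3D and aged TN were nearly equal, and the rise was 0.33 (SE 0.077, edgeR adjusted p = 0.0349). The Icam1+ call was lost without young 3D, young 14D or aged 3D (edgeR adjusted p = 0.172, 0.0726 and 0.165), with log2 fold changes of 0.24 to 0.41 over all libraries left out.

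Outside the ASPCs the Lgals3 difference with age did not pass the test. Endothelial cells held 16.0, 38.5 and 16.6 CPM in young and 25.5, 30.2 and 23.8 CPM in aged TN, 3D and 14D, a difference of 0.22 (SE 0.211, edgeR adjusted p = 0.714). SMC/pericyte held 28.1, 33.6 and 6.93 CPM in young and 63.1, 45.0 and 45.0 CPM in aged libraries. These levels rest on few counts, 107 Lgals3 UMIs over all libraries in 76 to 248 cells each. The SMC/pericyte groups did not overlap and the fitted difference was the largest of the 30 in size, 1.17, but its SE was 0.365 and its edgeR adjusted p was 0.278. With fixed limits on cells in place of limits set per library, or with no limit but more than 200 genes per cell (chosen after seeing the data), the SMC/pericyte difference of 1.35 or 1.10 passed (edgeR adjusted p = 0.00239 and 0.000315).

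Lgals3bp in Dpp4+ fibroblasts measured 178, 148 and 198 CPM in young and 127, 127 and 151 CPM in aged TN, 3D and 14D. Only aged 14D reached into the young range, and the mean fell from 175 ± 25.2 to 135 ± 14.0 CPM, a log2 fold change of -0.37 (SE 0.066, edgeR adjusted p = 0.00246). In Cd142+ fibroblasts it measured 155, 149 and 185 CPM in young and 115, 115 and 143 CPM in aged libraries, without overlap, and changed by -0.39 (SE 0.091, edgeR adjusted p = 0.00657). Without aged 3D the Cd142+ value was -0.40 and missed the threshold (edgeR adjusted p = 0.0516), as it did by DESeq2, with thinned cells and with classes gated on 2000 UMIs (-0.40, -0.34 and -0.57, adjusted p = 0.140, 0.225 and 0.110). In Icam1+ preadipocytes Lgals3bp measured 203, 216 and 254 CPM in young and 137, 183 and 206 CPM in aged libraries, a change of -0.37 (SE 0.078, edgeR adjusted p = 0.0245) that missed the threshold without young 3D or aged 3D (edgeR adjusted p = 0.0572 and 0.0511). Endothelial cells held 64.3, 78.5 and 102 CPM in young and 62.2, 75.7 and 90.8 CPM in aged libraries, and the difference of -0.09 did not pass (edgeR adjusted p = 0.767). SMC/pericyte held 67.5, 132 and 111 CPM in young and 46.4, 86.7 and 86.5 CPM in aged libraries, lower in aged at 3 of 3 temperatures, and the difference of -0.50 (SE 0.208) did not pass (edgeR adjusted p = 0.467).

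Lgals9 in Dpp4+ fibroblasts measured 132, 139 and 152 CPM in young and 120, 121 and 125 CPM in aged TN, 3D and 14D. The groups did not overlap and the change was small, -0.21 on the log2 scale (SE 0.060, edgeR adjusted p = 0.0351). It missed the threshold without young 3D, young 14D, aged 3D or aged 14D (edgeR adjusted p = 0.166, 0.141, 0.166 and 0.134). In Icam1+ preadipocytes it measured 81.7, 94.6 and 87.5 CPM in young and 71.0, 74.0 and 70.4 CPM in aged libraries, again without overlap, a change of -0.29 (SE 0.061, edgeR adjusted p = 0.0244) that missed the threshold without young 3D or aged 3D (edgeR adjusted p = 0.187 and 0.176). In Cd142+ fibroblasts aged 14D, at 87.8 CPM, was the highest of the 6 libraries, and the difference of -0.09 did not pass (edgeR adjusted p = 0.705). Endothelial cells held 118, 105 and 130 CPM in young and 99.1, 90.2 and 111 CPM in aged libraries, with a difference of -0.24 that did not pass (edgeR adjusted p = 0.313).

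With all 6 libraries, Lgals1, Lgals8 and Lgals4 had no call for age in any of the 5 classes. Lgals1 measured 805, 645 and 920 CPM in young and 914, 801 and 912 CPM in aged Dpp4+ fibroblasts, a difference of 0.16 (SE 0.072, edgeR adjusted p = 0.162), and in the other 4 classes its difference lay between -0.10 and 0.05. Single libraries decided the Dpp4+ call, which was made without young 14D or aged 14D (0.24 and 0.24, edgeR adjusted p = 0.0272 and 0.0175), while the difference was 0.084 without young 3D and 0.083 without aged 3D (edgeR adjusted p = 0.683 and 0.696). Lgals8 differences lay between -0.13 in Cd142+ fibroblasts and 0.06 in Dpp4+ and Icam1+ cells. The Cd142+ groups did not overlap for Lgals8 (38.9 to 41.0 CPM in young, 35.8 to 37.5 CPM in aged), yet the test gave an edgeR adjusted p of 0.563. Lgals4 in Cd142+ fibroblasts, with 109 UMIs in all, measured 3.29, 5.06 and 3.88 CPM in young and 5.26, 6.48 and 7.59 CPM in aged libraries. These groups did not overlap either, and the difference of 0.63 with an SE of 0.313 did not pass (edgeR adjusted p = 0.243).

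**Figure D2:**
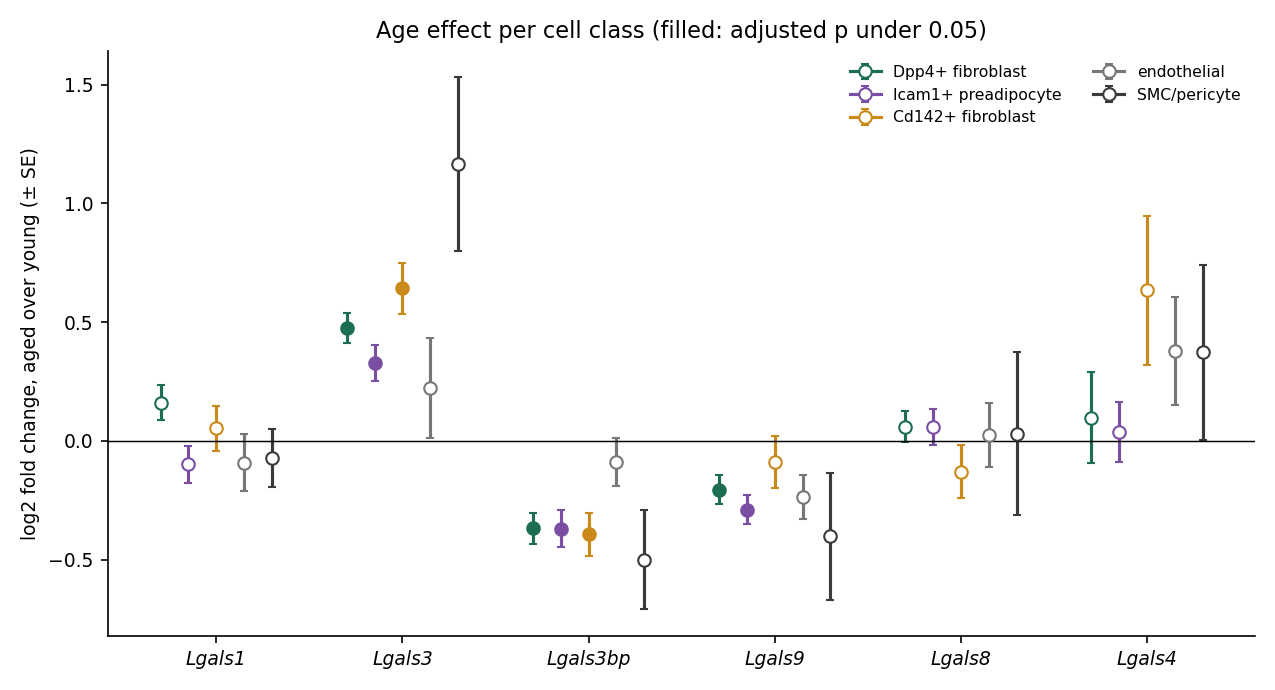
Log2 fold change of aged over young (vertical axis, points with SE bars) for the 6 genes in 5 cell classes from 3 libraries per age, with filled points where the edgeR adjusted p is under 0.05. Filled points stand above 0 for Lgals3 (0.33 to 0.64) and below 0 for Lgals3bp (-0.39 to -0.37) and Lgals9 (-0.29 and -0.21), all in ASPC classes.

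Whether the age effect of a member differed between classes was tested directly on the sums of each pair of classes. No member passed in any of the 10 pairs, 0 of 60 tests by edgeR, with 6 at an unadjusted p under 0.05 (DESeq2 was not run on these pairs). The lowest adjusted p belonged to Lgals3, whose age effect was 0.32 larger in Cd142+ than in Icam1+ cells (SE 0.096, edgeR adjusted p = 0.210), and 0.051 larger with cells thinned to 2000 UMIs and equal cell numbers (edgeR adjusted p = 0.990). So no member's age effect was shown to be particular to a class, and a call in one class beside none in another is not such a difference. The share of all genes called was low as well: 1.3% between Dpp4+ and Icam1+, 1.84% between Dpp4+ and Cd142+, 0.626% between Dpp4+ and endothelial, 0.569% between Dpp4+ and SMC/pericyte, 0.6% between Icam1+ and Cd142+, 0.101% between Icam1+ and endothelial, 0.471% between Icam1+ and SMC/pericyte, 0.105% between Cd142+ and endothelial, 0.154% between Cd142+ and SMC/pericyte and 0.0288% between endothelial and SMC/pericyte.

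CPM of a summed class can move because more cells hold the RNA or because each holds more. The share of cells with at least 1 UMI was counted after each cell was thinned to 2000 UMIs. Most thinned cells held no UMI of Lgals3 or Lgals3bp, and at such levels the share follows the CPM. It therefore does not separate these possibilities. Lgals3 was detected in 15.8% ± 1.31 of young and 21.3% ± 4.11 of aged Dpp4+ fibroblasts (SD, n = 3 libraries), and in 17.7% ± 2.47 of young and 24.3% ± 2.85 of aged Cd142+ fibroblasts. Neither pair of groups overlapped at this depth, but both did at 1000 UMIs and without thinning. In Icam1+ preadipocytes the shares were 16.9% ± 2.27 and 20.6% ± 1.71 and overlapped. Endothelial cells, in which Lgals3 is low, held 2.62% ± 0.951 and 4.51% ± 0.398 at the same thinned depth, below the share of every ASPC library. The endothelial groups did not overlap either, and neither did those of SMC/pericyte (3.05% ± 1.79 and 7.53% ± 2.00). For Lgals3bp the shares in young and aged were 27.0% ± 3.18 and 22.0% ± 1.82 in Dpp4+, 33.4% ± 2.31 and 26.8% ± 3.84 in Icam1+ and 25.0% ± 3.50 and 20.5% ± 2.68 in Cd142+ cells. The Icam1+ groups did not overlap, and the Dpp4+ and Cd142+ groups did. The smallest p that an exact permutation of 3 against 3 libraries can give is 0.1, and over the 30 shares compared none went below an adjusted p of 0.273. Without thinning, aged Icam1+ preadipocytes held Lgals3 less often than young ones, by -4.78 percentage points. In aged 14D the median Icam1+ cell held 3087 UMIs against 7206 or more in the other libraries.

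Lgals3 is abundant in macrophages, so their RNA was measured beside it. The summed level of 15 macrophage genes in Dpp4+ fibroblasts was 21.7 to 31.2 raw CPM in young and 24.6 to 25.9 in aged libraries. It was 15.4 to 22.0 and 20.2 to 42.6 in Icam1+ and 19.7 to 67.0 and 20.3 to 40.2 in Cd142+ cells, and the ages overlapped in all 3 classes. At the ratio of Lgals3 to these 15 genes in each library's own myeloid cells (6 to 24 cells each, in which 10 of the 15 genes also define the class), this RNA would carry 0.295 to 1.81 raw CPM of Lgals3 in Dpp4+ fibroblasts, where 79.4 to 170 were counted. The values were 0.210 to 3.11 against 92.2 to 149.99 in Icam1+ and 0.243 to 2.15 against 90.4 to 207 in Cd142+ cells. With every cell that held a UMI of an immune marker left out, the Lgals3 age effect was 0.46, 0.33 and 0.62 in Dpp4+, Icam1+ and Cd142+ cells (edgeR adjusted p = 0.000524, 0.0367 and 0.000137). The myeloid ratio itself ranged from 0.0123 in young TN to 0.0731 in aged 14D. The part of macrophage RNA in the Lgals3 levels and in their age difference was not tested. Adipocyte RNA did move with age in Dpp4+ fibroblasts, where 9 adipocyte genes summed to 8.74 to 12.2 raw CPM in young and 15.4 to 23.9 in aged libraries, and its part in the results was not tested. Red blood cell RNA in Dpp4+ fibroblasts was 4.02, 164 and 3.84 raw CPM in young and 143, 562 and 230 raw CPM in aged TN, 3D and 14D. Like Lgals3 there, it was higher in aged libraries at every temperature and highest at 3D in both ages. Its part in the results was not tested either. Without the aged 14D library the Lgals3 effect was 0.52, 0.24 and 0.56 (edgeR adjusted p = 3.13e-05, 0.0328 and 2.29e-05).

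The few immune, Schwann and lymphatic cells gave levels with wide counting intervals, and these are given as raw CPM. In myeloid cells Lgals3 counted 484, 872 and 462 raw CPM in young and 1402, 979 and 2643 raw CPM in aged TN, 3D and 14D. The aged libraries lay above the young ones in these 6 to 24 cells each, and an exact two-sided permutation test gave p = 0.1, the smallest that 3 against 3 allows, and 0.8 after adjustment over the 24 tests of these classes. Lgals3 in Schwann cells, the glia of peripheral nerves, was the next highest, from 413 to 913 raw CPM, with both ages mixed. Lymphatic endothelial cells held Lgals3 UMIs only in aged 3D (10 UMIs in 6 cells), and the other 5 libraries held none in 4 to 15 cells each. Lgals1 in lymphoid cells averaged 294 ± 91.4 raw CPM in young and 663 ± 190.0 in aged libraries, and Lgals9 in lymphatic endothelial cells 116 ± 6.67 and 39.2 ± 37.6. Each pair of groups was apart, with the same exact permutation p of 0.1 and adjusted p of 0.8.

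**Figure D3:**
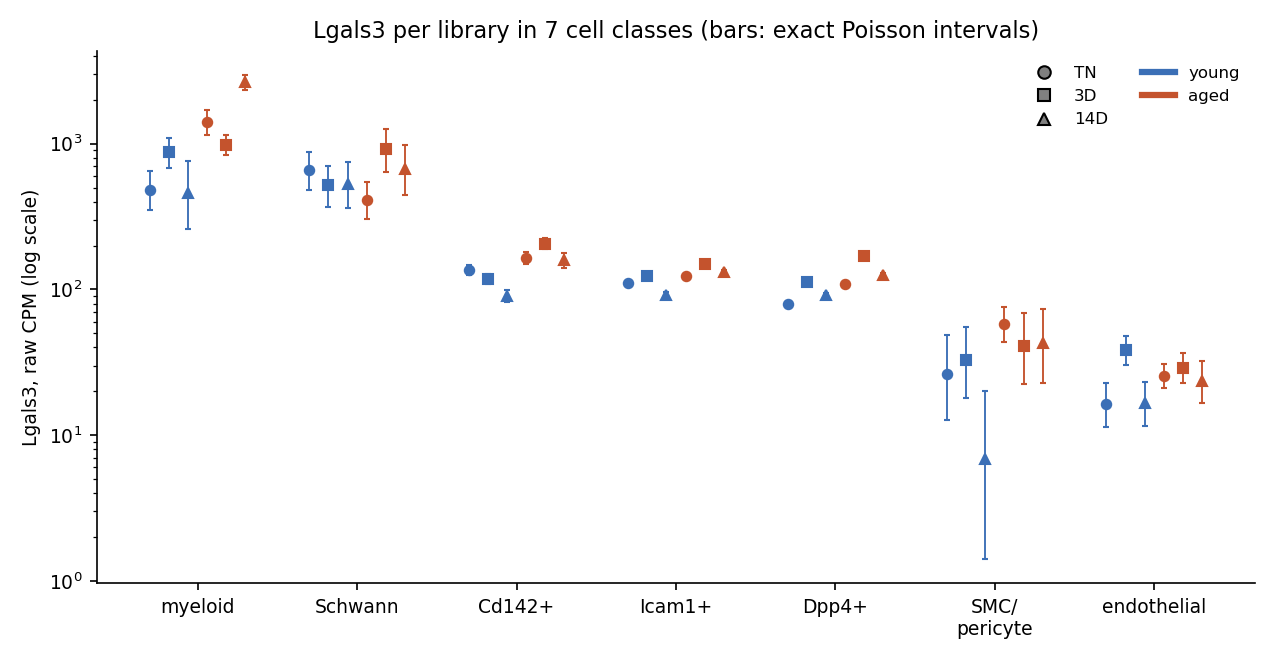
Lgals3 as raw CPM of the class (vertical axis, log scale) in each of 6 libraries for 7 cell classes, with exact Poisson intervals that cover counting error only, young in blue and aged in orange, and circles, squares and triangles for TN, 3D and 14D. Myeloid cells (462 to 2643) and Schwann cells (413 to 913) lie above the ASPC classes (79.4 to 207), and SMC/pericyte and endothelial cells lie below them.

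The third question was how the members differed with cold. Temperature was tested as both cold groups against TN with age as a term, over 2 libraries per temperature. In Dpp4+ fibroblasts 1 of 6 members passed, Lgals3 (background 7.85% of genes). None passed in Icam1+ (background 3.15%), Cd142+ (background 3.04%), endothelial (background 0.513%) or SMC/pericyte cells (background 0.393%). In these 4 classes edgeR gave 2, 3, 3 and 1 members at an unadjusted p under 0.05, and DESeq2 called 1, 0, 0 and 0, having given no adjusted p for 1, 4 and 3 of the 6 members in Cd142+, endothelial and SMC/pericyte cells. DESeq2 called 3 members in Dpp4+ fibroblasts.

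Lgals3 in Dpp4+ fibroblasts was highest at 3D in both ages, 111 CPM against 79.9 at TN and 95.3 at 14D in young and 168 CPM against 109 and 123 in aged libraries. The joint test gave an edgeR adjusted p of 0.0044. It rose by 0.55 on the log2 scale from TN to 3D (SE 0.078, edgeR adjusted p = 0.00209, against 7.5% of genes called), by 0.47 in young and 0.62 in aged libraries, a difference that could not be tested with 1 library each. The 14D level was 0.21 above TN and did not pass (edgeR adjusted p = 0.151, against 4.74% of genes called). Without aged 3D the joint test missed the threshold (edgeR adjusted p = 0.0728, 3D over TN 0.46). In Cd142+ fibroblasts the young Lgals3 level was 136, 116 and 90.7 CPM at TN, 3D and 14D while the aged level was 162, 211 and 161 CPM, and the joint test did not pass (edgeR adjusted p = 0.234). Red blood cell RNA in Dpp4+ fibroblasts was also highest at 3D in both ages (164 raw CPM in young and 562 in aged libraries). Its part in the Lgals3 values was not tested.

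Lgals3bp was highest at 14D in both ages in all 3 ASPC classes and in endothelial cells, where it was 0.61 above TN (joint edgeR adjusted p = 0.0981). In Icam1+ preadipocytes it was 0.45 above TN at 14D (joint edgeR adjusted p = 0.0832). Lgals1 was lowest at 3D in both ages in the 3 ASPC classes, at -0.25, -0.24 and -0.34 on the log2 scale from TN in Dpp4+, Icam1+ and Cd142+ cells (joint edgeR adjusted p = 0.0636, 0.282 and 0.258). None of these passed in edgeR with all 6 libraries. DESeq2 on the same libraries called Lgals1 in Dpp4+ cells (DESeq2 adjusted p = 0.0192). It also called Lgals3bp in Dpp4+ and Icam1+ cells (DESeq2 adjusted p = 0.0498 and 0.0160). Without aged 14D the joint test passed for Lgals1 in Dpp4+ (edgeR adjusted p = 0.00196), for Lgals3 and Lgals3bp in Icam1+ (0.00124 and 0.00814), for Lgals3 in Cd142+ (0.0374) and for Lgals1, Lgals3 and Lgals3bp in endothelial cells (0.00495, 0.0150 and 0.0254). Without young TN it passed for Lgals1 and Lgals3bp in Dpp4+ (edgeR adjusted p = 0.0380 and 0.0158) and Lgals3 and Lgals3bp in Icam1+ cells (0.0463 and 0.0185). Without aged TN it passed for Lgals3bp in Dpp4+ and Lgals3 in Cd142+ cells (edgeR adjusted p = 0.0278 and 0.0154), and without young 14D for Lgals3bp in Icam1+, Lgals1 in endothelial and Lgals3bp in SMC/pericyte cells (edgeR adjusted p = 0.0181, 0.000348 and 0.0326).

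**Figure D4:**
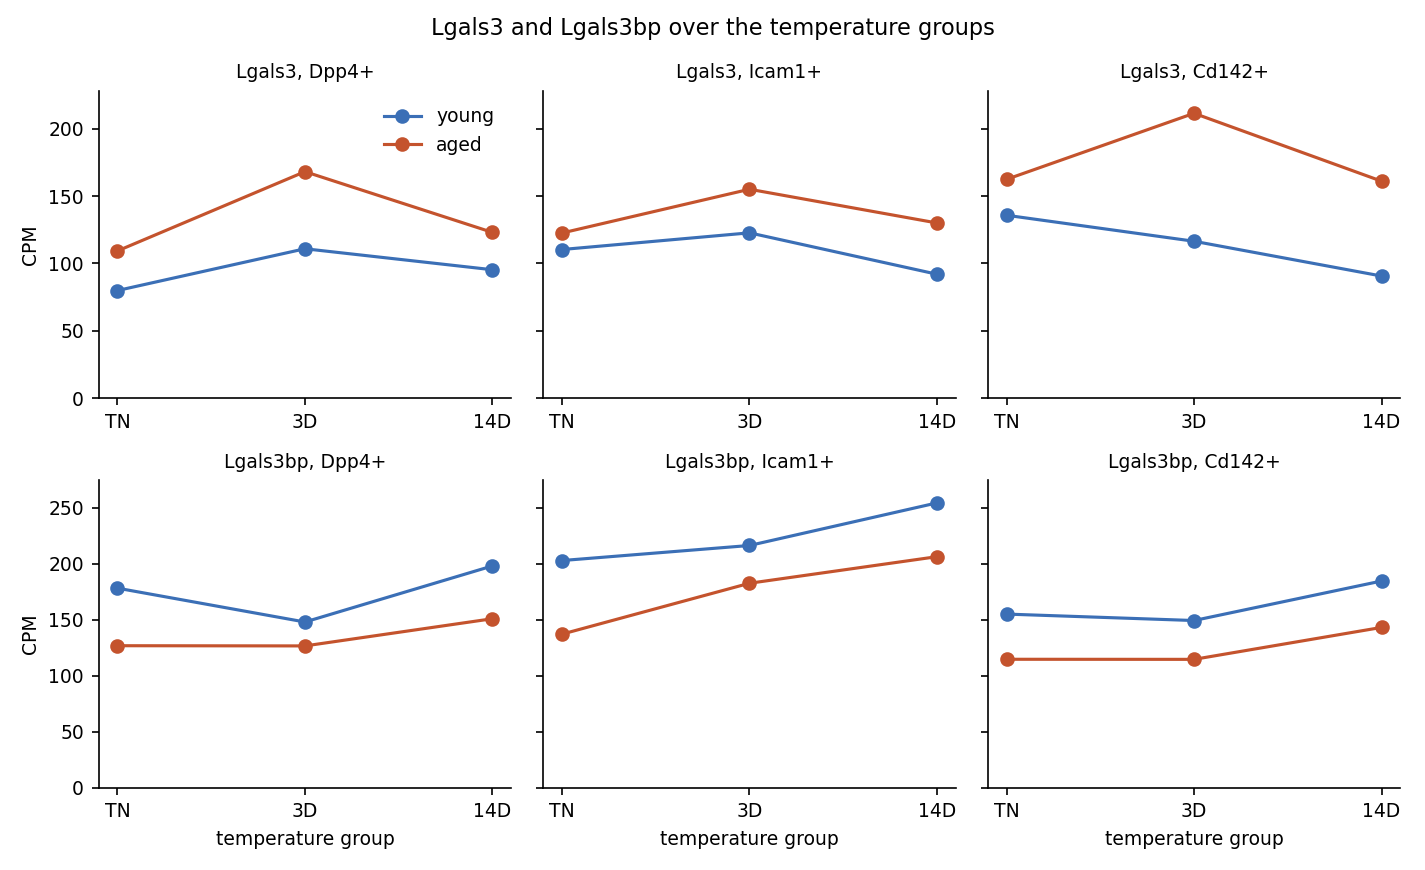
Lgals3 (top) and Lgals3bp (bottom) as CPM (vertical axis, linear from 0) in the 3 ASPC classes at TN, 3D and 14D, 1 library per point, young in blue and aged in orange. The aged Lgals3 line lies above and the aged Lgals3bp line below the young one at every temperature, and Lgals3 in Dpp4+ fibroblasts peaks at 3D (111 and 168 CPM).

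Of 6 other galectin and galectin-like genes, Lgals6 is not among the counted genes and only Lgalsl, a relative that lacks sugar binding, passed the filter on low counts. It fell with age by 0.41 on the log2 scale in Dpp4+ fibroblasts (edgeR adjusted p = 0.00197) and by 0.37 in Cd142+ fibroblasts (edgeR adjusted p = 0.0324), and was -0.22 in Icam1+ preadipocytes (edgeR adjusted p = 0.0659). Lgals12, a galectin of fat cells, gave 81 UMIs over all classes, Lgals7 31, Grifin 9 and Lgals2 6.

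Galectins act through glycoproteins, and 18 genes for galectin-binding glycoproteins and receptors were listed. In Dpp4+ fibroblasts 3 of 16 tested rose and 3 fell with age (median log2 fold change -0.04). Itga5, the alpha chain of the fibronectin receptor, rose by 0.42 (edgeR adjusted p = 0.00304) and Kdr, a VEGF receptor at 2.29 and 3.61 CPM, by 0.67 (edgeR adjusted p = 0.0217). Fn1, the matrix protein fibronectin, fell by 0.32 (edgeR adjusted p = 0.0178) and Bsg, basigin, by 0.23 (edgeR adjusted p = 0.0314). In Icam1+ preadipocytes 1 of 17 rose (Tfrc, the transferrin receptor, 0.48) and 1 fell (Mertk, a receptor for dying cells, -0.45), with a median of 0.12. In Cd142+ fibroblasts 1 of 15 rose (Pdgfrb, 0.44) and none fell, with a median of -0.02.

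The sugars themselves are built by enzymes of the Golgi, of which 14 were listed. In Dpp4+ fibroblasts none of 13 tested rose and 4 fell (median -0.08), among them Man2a1, a mannosidase that trims N-glycans, by 0.52 (edgeR adjusted p = 0.000715) and Fut8, which adds core fucose, by 0.27 (edgeR adjusted p = 0.0176). In Icam1+ preadipocytes 1 of 13 rose (Mgat4a, by 0.57, edgeR adjusted p = 0.0259) and 1 fell (median -0.0025). In Cd142+ fibroblasts 1 of 12 rose and 2 fell (median 0.05). B4galt1, which makes the galactose ends that galectins bind, fell in both of these classes, by 0.30 (edgeR adjusted p = 0.0261) and 0.38 (edgeR adjusted p = 0.00788). St6gal1, whose sialic acid can mask those ends, rose in Cd142+ fibroblasts by 1.06 (edgeR adjusted p = 0.0327), from 3.67 ± 1.31 to 7.69 ± 1.49 CPM.

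Of 11 genes of the response to damaged endosomes and lysosomes, in which galectin-3 and galectin-8 take part, 2 of 10 tested rose in Dpp4+ fibroblasts and 1 of 10 each in Icam1+ and Cd142+ cells, and none fell (medians 0.02, 0.06 and 0.06). The gene that rose in all 3 was Sqstm1, the autophagy receptor p62, by 0.52, 0.38 and 0.53 (edgeR adjusted p = 8.52e-05, 0.0250 and 0.000835). Its levels were 299 ± 22.3 CPM in young and 429 ± 30.2 CPM in aged Dpp4+ fibroblasts. Trim16, a partner of galectin-3 at damaged membranes, rose by 0.25 in Dpp4+ fibroblasts (edgeR adjusted p = 0.0292).

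Genes that accompany Lgals3 in lipid-associated macrophages were also read in the ASPCs, and 5 of 11 tested rose in Dpp4+ fibroblasts (median 0.32). In Icam1+ preadipocytes 3 of 12 rose and 1 fell, and in Cd142+ fibroblasts 3 of 11 rose (medians -0.0022 and 0.06). Gpnmb, a glycoprotein of lysosomes, rose by 1.91, 0.87 and 0.94 in Dpp4+, Icam1+ and Cd142+ cells (edgeR adjusted p = 8.92e-08, 0.000586 and 2.96e-07). Cd9, a tetraspanin, rose by 1.68, 1.45 and 0.88 (edgeR adjusted p = 1.08e-07, 6.42e-05 and 1.11e-06). Apoe, the lipid carrier, fell by 0.63 in Icam1+ preadipocytes (edgeR adjusted p = 0.00573). The macrophage genes beside them gave 0 of 8, 1 of 7 and 0 of 4 that passed, the exception being Cd68, a lysosomal protein, in Icam1+ preadipocytes (0.59, edgeR adjusted p = 0.0287).

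Of 20 interferon-stimulated genes, 1 rose and 1 fell with age in Dpp4+ fibroblasts (20 tested, median -0.03), 3 fell in Icam1+ preadipocytes (20 tested, median -0.19) and 3 fell in Cd142+ fibroblasts (19 tested, median -0.13). Ifi27l2a fell in all 3 classes, by 0.70, 1.44 and 1.28 (edgeR adjusted p = 4.06e-05, 0.00515 and 2.11e-07). Ifit3 fell in Icam1+ and Cd142+ cells by 0.69 and 0.85 (edgeR adjusted p = 0.0331 and 0.0045), and Gbp2 rose by 0.26 in Dpp4+ fibroblasts (edgeR adjusted p = 0.0416). Lgals9, whose promoter window holds the motif printed above, was lower with age in Icam1+ and Dpp4+ cells, and most of the 20 listed genes did not pass in either class. These lists were written with results of these data known, and 17.3%, 11.5% and 8.76% of all genes passed in Dpp4+, Icam1+ and Cd142+ cells.

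Lgals4 needs care because it lies 1606 bases downstream of the end of Ech1 on the same strand, and Ech1 encodes an enzyme of fatty acid oxidation. Across the 30 sums of a class and a library the log2 levels of both genes rose together (Pearson r = 0.937, a description, since sums of a library share their depth), and Lgals4 gave 2.87% as many UMIs as Ech1 in Dpp4+ fibroblasts, 4.55% in Icam1+, 4.15% in Cd142+, 5.86% in endothelial and 5.67% in SMC/pericyte cells. The order of the classes was the same, with Dpp4+ fibroblasts lowest and SMC/pericyte highest for both. Within endothelial cells and within SMC/pericyte the libraries with more Ech1 did not hold more Lgals4. Within Cd142+ fibroblasts the libraries highest in Ech1, aged 3D and aged 14D, were also highest in Lgals4 (6.33 and 7.48 raw CPM). Whether reads that run past the end of Ech1 were counted for Lgals4 was not tested, since only counts per gene were used here.

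**Figure D5:**
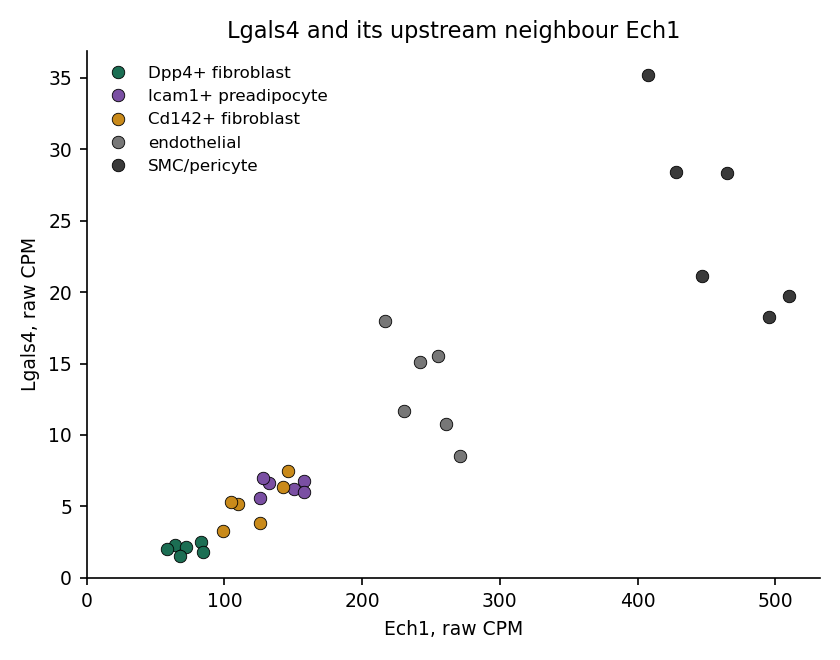
Lgals4 (vertical axis) against Ech1 (horizontal axis), both as raw CPM of the class on linear axes from 0, with a point for each of 6 libraries in 5 cell classes. Both levels are lowest in Dpp4+ fibroblasts and highest in SMC/pericyte, where Ech1 lies between 408 and 510 raw CPM.

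Genes whose pattern across the 30 sums was most like a member's were named by Pearson r of log2(CPM + 1) among 7596 genes of at least 20 CPM on average in any tested class. The points share libraries and classes, so r is a description without a test. Lgals1 was most like Arhgef25 (0.982), Tspan3 (0.971) and Pdgfrb (0.970), Lgals3 most like Cdc42se1 (0.951), Atf6 (0.947) and Sult5a1 (0.943), and Lgals3bp most like Kdelr2 (0.945), P4ha2 (0.944) and Dnajc25 (0.939). Atf6 and Kdelr2 work in the endoplasmic reticulum, and P4ha2 hydroxylates collagen. Lgals9 was most like Hdac7 (0.951), Heg1 (0.948) and Pxn (0.947), and Lgals4 most like Ddx39b (0.958), its neighbour Ech1 (0.937) and Kalrn (0.936). Lgals8, the member with the flattest profile, had no gene above 0.777 (Senp3).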

How the data were processed

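The authors ran Cell Ranger on 10x 3' libraries against mm10, and deposited its raw UMI counts per gene and barcode of 6 libraries, 1 per age and temperature. Nothing here names separate mice as replicates. The study's later Seurat steps (R 4.1.1) are not in these counts.

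Barcodes with more than 200 genes were kept within 3 median absolute deviations per library. A cell joined a broad class with at least 7 of 10 fibroblast markers or 5 of 10 others (3 of 6 for lymphatic). Cd142+ cells needed 5 of 10 markers, and Dpp4+ and Icam1+ cells a lead of 2. These thresholds were chosen after marker counts were seen. Cells in more than 1 broad class (1573) were left out as possible doublets, and no doublet caller was run.

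UMIs were summed per library and class, and classes with at least 20 cells in every library were tested with edgeR 4.0.16 (R 4.3.3, TMM, filterByExpr, quasi-likelihood F test, Benjamini-Hochberg over all genes, threshold 0.05), with age and temperature as terms. DESeq2 1.42.0 was an alternative. A joint fit of all tested classes with library as a block compared classes. Each SE is the log2 fold change over the square root of F. Shares used cells thinned to 2000 UMIs (Python 3.11.15, numpy 2.4.6, pandas 2.3.3) and exact permutation tests (scipy 1.17.1). Poisson and binomial 95% intervals are exact and cover counting error only. On simulated data with 200 genes changed by 1 on the log2 scale, 88.5% were recovered in Dpp4+, 78.5% in Icam1+, 79.5% in Cd142+, 75.5% in endothelial and 49% in SMC/pericyte sums. Unchanged genes called in error numbered 17, 24, 9, 11 and 4 in the same order. Smaller changes, such as the called member effects, were not simulated.

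Named genes were the 6 members, the other galectin genes, of each other list the called genes that moved most in each ASPC class (2 upward, 2 downward), and the 3 genes most like each member. Members, lists and tests were chosen with earlier results of these data known. Further lists (dissociation, cycling, red blood cell and adipocyte genes) were measured for contamination and cell state. Of these, in Dpp4+, Icam1+ and Cd142+ cells, dissociation genes gave 2, 1 and 1 that rose and 1, 0 and 0 that fell of 10 tested, cycling genes 7, 0 and 0 that fell of 10, 9 and 1, red blood cell genes 5, 0 and 0 that rose of 5, 5 and 4, and adipocyte genes 4, 3 and 0 that rose and 0, 0 and 1 that fell of 7, 7 and 3. Amino acid sequences were not used here.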

Additional observations from a re-analysis of the deposited data

Results flagged for a closer look

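Lgals8 in endothelial cells moved in opposite directions with cold in the 2 ages. In young libraries it was -0.074 (3D over TN) and -0.26 (14D over TN) on the log2 scale, and in aged libraries 0.23 and 0.13. Each value compares 1 library with 1 library, and the difference between the ages was not tested.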

How the results depend on the processing

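No pairing of replicates was possible because each group is 1 library and the labels carry no replicate numbers that pair libraries across groups. The temperature term only sets the young and the aged library of the same temperature against each other. With 2 residual degrees of freedom, leaving out 1 library of a temperature also removes what its partner says of age, and 1 library decided several calls named in the report. Of 502 values of the 30 age effects under alternatives, 443 kept their direction and their side of the threshold, 28 lost the call, 4 gained one and 27 changed sign. The cause of a change was not tested, except that fits on thinned cells hold fewer UMIs. Without the temperature term the age effects kept their size and, other than Lgals3 in Cd142+ cells, lost the call (edgeR adjusted p in parentheses here and below): Lgals3 was 0.49 in Dpp4+ and 0.33 in Icam1+ cells (adjusted p = 0.139 and 0.244), Lgals3bp -0.38, -0.36 and -0.40 in Dpp4+, Icam1+ and Cd142+ cells (0.115, 0.289 and 0.122) and Lgals9 -0.21 and -0.29 in Dpp4+ and Icam1+ cells (0.187 and 0.118), which left 0, 0 and 1 members called. Without the age term, Lgals3 at 3D over TN in Dpp4+ cells was 0.56 (0.715) and 0 members were called for temperature.

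With cells thinned to 2000 UMIs and equal cell numbers, Lgals3 was 0.31 in Icam1+ and 0.36 in Cd142+ cells (adjusted p = 0.0512 and 0.200), Lgals3bp -0.34 in Cd142+ (0.225) and Lgals9 -0.26 in Icam1+ cells (0.0712), with 1 and 0 members called. The signs turned for Lgals4 in Icam1+ (-0.20), Lgals9 in Cd142+ (0.074), Lgals8 in endothelial cells (-0.15) and the difference of the Lgals3 age effect between Dpp4+ and Cd142+ cells (-0.071). With classes gated on 2000 UMIs, Lgals3 in Icam1+ was 0.29 (0.0509), Lgals3bp in Cd142+ -0.57 (0.110, 1 member called), and Lgals8 turned in SMC/pericyte (-0.28) and Cd142+ (0.15). DESeq2 gave -0.40 for Lgals3bp in Cd142+ (0.140, 1 member called) and -0.21 for Lgals9 in Dpp4+ cells (0.0800), and called 1 and 3 members for temperature in Icam1+ and Dpp4+ cells. Fixed cell limits turned Lgals9 in SMC/pericyte (0.18), as did no limit but more than 200 genes per cell (0.11), and each left 1 member called there. A stricter gate turned Lgals8 (0.080) and Lgals9 (0.044) in Cd142+ cells. Without cells that held an immune UMI, Lgals9 in Dpp4+ was -0.19 (0.0543), and Lgals4 in Icam1+ (-0.020) and Lgals8 in endothelial cells (-0.030) turned. Size factors of the kind DESeq2 uses turned the Lgals8 class differences between Icam1+ and endothelial (-0.073) and between Dpp4+ and SMC/pericyte (-0.024). The Lgals9 share in Cd142+ cells turned at 1000 UMIs (0.227 points) and the Lgals3 share in Icam1+ without thinning (-4.78 points).

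Over the fits that leave out 1 library each, the age effect ranged in Dpp4+ cells from 0.083 to 0.24 for Lgals1, -0.0025 to 0.22 for Lgals4 and -0.25 to -0.17 for Lgals9, in Icam1+ cells from 0.24 to 0.41 for Lgals3, -0.44 to -0.29 for Lgals3bp, -0.35 to -0.26 for Lgals9, -0.11 to 0.12 for Lgals4 and -0.00055 to 0.14 for Lgals8, and in Cd142+ cells from -0.41 to -0.37 for Lgals3bp. In endothelial cells it ranged from -0.30 to 0.033 for Lgals1, -0.029 to 0.61 for Lgals3 and -0.048 to 0.15 for Lgals8, and in SMC/pericyte from -0.47 to 0.44 for Lgals8. The 3D over TN value ranged for Lgals3 from 0.46 to 0.64 in Dpp4+, -0.21 to 0.37 in Cd142+ and -0.60 to 0.62 in SMC/pericyte cells, for Lgals3bp in Cd142+ from -0.054 to 0.0033, and for Lgals1 in SMC/pericyte from -0.10 to 0.033. Members called for age ranged from 0 to 3 in Icam1+ and 1 to 2 in Cd142+ cells, and for temperature from 0 to 3 in Dpp4+, 0 to 2 in Icam1+, 0 to 1 in Cd142+, 0 to 3 in endothelial and 0 to 1 in SMC/pericyte cells.

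Genes called for age over all genes numbered 2275 in Dpp4+ (717 to 2778 under the other alternatives, 1296 to 2147 with 1 library left out), 1556 in Icam1+ (227 to 2227 and 569 to 2094), 945 in Cd142+ (164 to 1141 and 675 to 838), 63 in endothelial (10 to 390 and 10 to 243) and 18 in SMC/pericyte cells (0 to 436 and 5 to 81). Genes called for temperature numbered 1030 (0 to 617 and 408 to 1904), 426 (0 to 608 and 96 to 2698), 328 (0 to 94 and 262 to 783), 52 (7 to 45 and 35 to 459) and 24 (3 to 10 and 6 to 310) in the same order.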
